A study of Mus musculus with 3 samples.

Results

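The expression of 10 germline genes was examined in E14 mouse embryonic stem cells (ESCs), a line derived from the inner cell mass of the mouse embryo. The genes were *Dazl*, *Ddx4*, *Mael*, *Asz1*, *Tdrkh*, *Sycp1*, *Sycp3*, *Hormad1*, *Stk31* and *Slc25a31*. They were taken by symbol from tables with 23953 rows for genes, and each of the 10 had a row in both tables. The study asked what deletion of the *Oct4* distal enhancer (DE) does to gene expression in ESCs, and whether transgenic *Oct4* changes that outcome. Total RNA from 3 cultures was sequenced as 1 stranded library per condition. The library labelled WT has the same construct labels, doxycycline inducible and tamoxifen inducible, as the others, and the sources used here do not give whether its cells were parental or untreated cells of the floxed line. The libraries labelled Tam and DoxTam came from E14 cells that the study names *Oct4* DE (-/-). The study describes their loxP sites as flanking the conserved region CR4 within the *Oct4* DE. The cells also carried a tamoxifen-inducible Cre (CreERT2) and a doxycycline-inducible mouse *Oct4* transgene. The library labelled Tam received 4-OH tamoxifen and the library labelled DoxTam received 4-OH tamoxifen and doxycycline, each for 48 h. All cells were cultured with serum and LIF. The floxed lines were clonally expanded, so where WT was another line, clone and treatment cannot be told apart. With 1 library per condition, the differences below have no replicate check and no p-value, and they compare libraries.

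Germline genes serve the formation of sperm and eggs and are silent in most somatic tissues, where their CpG-rich promoters carry DNA methylation. ESCs and the early embryo transcribe a number of them at low levels. In ESCs the noncanonical Polycomb complex PRC1.6 is known to hold down many germline genes through its DNA-binding pairs MAX with MGA, which recognises the E-box CACGTG, and E2F6 with its partner, which recognises a GC-rich site. The 10 genes cover an RNA-binding regulator of germ cell entry (*Dazl*), proteins of the piRNA pathway and its cytoplasmic granules (*Ddx4*, *Mael*, *Asz1*, *Tdrkh*), structural proteins of meiotic chromosomes (*Sycp1*, *Sycp3*, *Hormad1*), a testis kinase-like protein with a tudor domain (*Stk31*) and an ADP/ATP carrier of male germ cells (*Slc25a31*).

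The promoters of these genes were read first, to look for the sites that the factors above recognise. Binding at these promoters was not measured. RefSeq promoter windows of 300 bases, from 250 bases before to 50 bases after a transcription start, were found for 10 of the 10 genes, and each window matched the mm9 chromosome of its gene exactly once. The E-box CACGTG, which reads the same on both strands, occurred in 7 of the 10 windows (70.0%) and was not found in those of *Dazl*, *Asz1* and *Tdrkh*. It occurred in 7.15% of 32851 RefSeq windows, in 8.09% of 27025 genes and in 12.2% of the 8991 genes with 1 FPKM or more in WT. An E2F-type sequence, GCGGGA or its reverse complement TCCCGC, occurred in 6 of the 10 windows, compared with 20.0% of all windows and 41.5% of the genes with 1 FPKM or more in WT. All 6 of those genes also carried the E-box, and *Stk31* was the gene with the E-box alone. Both sequences together occurred in 1.99% of all windows. Counted by gene, as for the 10, they occurred in 2.32% of all genes and 4.75% of the genes with 1 FPKM or more in WT. The windows held 15 to 38 CpG dinucleotides with a median of 24, against a median of 7 over all windows and 23 over the genes with 1 FPKM or more in WT. These motifs were chosen after values of the genes had been seen, and a match describes letters in a window, not binding. The stretches around the E-boxes are given 5′ to 3′ on the strand of the gene, in lower case with CACGTG in capitals, because they are the sequence that 7 of the genes share.
Stk31: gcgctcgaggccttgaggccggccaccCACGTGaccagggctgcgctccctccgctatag
Hormad1: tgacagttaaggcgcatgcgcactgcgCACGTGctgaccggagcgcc
Sycp3: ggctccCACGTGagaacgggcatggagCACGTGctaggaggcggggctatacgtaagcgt
Sycp1: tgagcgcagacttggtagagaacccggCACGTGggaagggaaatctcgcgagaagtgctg
Ddx4: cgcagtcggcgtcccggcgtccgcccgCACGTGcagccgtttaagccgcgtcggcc
Mael: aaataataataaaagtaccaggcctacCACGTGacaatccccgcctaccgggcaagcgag
Slc25a31: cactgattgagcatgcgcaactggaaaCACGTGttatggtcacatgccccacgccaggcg

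In mm9 these stretches lie at chr6:49345456-49345515 (plus strand) for *Stk31*, chr3:95363552-95363598 (plus strand) for *Hormad1*, chr10:87922262-87922321 (plus strand) for *Sycp3*, chr3:102740085-102740144 (minus strand) for *Sycp1*, chr13:113442519-113442574 (minus strand) for *Ddx4*, chr1:168169066-168169125 (minus strand) for *Mael* and chr3:40512673-40512732 (plus strand) for *Slc25a31*. They lie before the RefSeq start of each gene. The first base of the E-box was 55 bp before the start of *Stk31*, 57 and 20 bp before that of *Hormad1*, and 64 and 43 bp before that of *Sycp3*. The distances were 94 bp for *Sycp1*, 93 bp for *Slc25a31*, 29 bp for *Ddx4* and 223 bp for *Mael*. Counted from the first listed RefSeq start of each gene, an E-box thus lay within 100 bp of the start in 6 of the 7 genes. From a second start of *Stk31*, described below, its E-box lay 120 bp away and outside that distance. The letters on either side of the E-box differed between the genes.

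**Figure D1:**
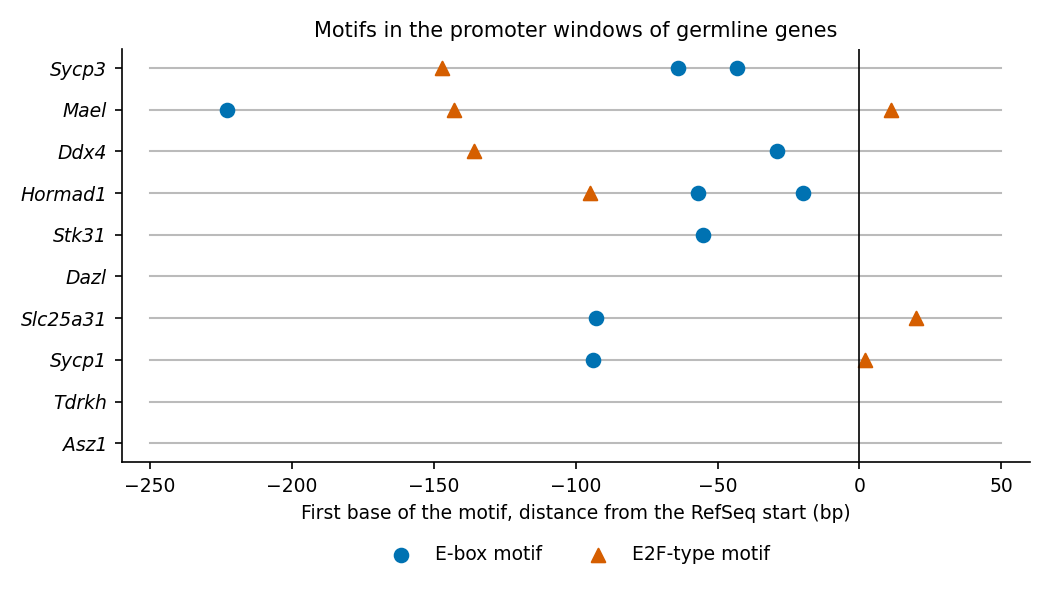
Positions of the E-box and of the E2F-type sequence in the promoter windows of the 10 genes, as the distance in bp of the first base of the motif from the RefSeq transcription start, with grey lines for the searched window. Circles for the E-box stand in 7 of 10 lines, and the lines of Dazl, Asz1 and Tdrkh hold neither motif.

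The 250 bases before the start of *Stk31*, *Hormad1* and *Dazl* are shown in full because they contrast 3 arrangements, an E-box without the E2F-type sequence, both sequences, and neither. Capitals again mark CACGTG and, in *Hormad1*, also GCGGGA.
Stk31: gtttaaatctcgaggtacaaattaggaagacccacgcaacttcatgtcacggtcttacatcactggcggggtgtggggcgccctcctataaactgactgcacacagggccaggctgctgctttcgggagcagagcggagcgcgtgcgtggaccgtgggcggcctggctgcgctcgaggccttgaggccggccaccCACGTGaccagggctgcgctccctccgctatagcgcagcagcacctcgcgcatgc
Hormad1: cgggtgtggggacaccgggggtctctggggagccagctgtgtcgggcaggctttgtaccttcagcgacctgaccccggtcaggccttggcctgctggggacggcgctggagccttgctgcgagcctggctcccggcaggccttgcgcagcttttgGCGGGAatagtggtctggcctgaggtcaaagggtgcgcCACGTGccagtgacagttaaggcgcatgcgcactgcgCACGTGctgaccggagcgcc
Dazl: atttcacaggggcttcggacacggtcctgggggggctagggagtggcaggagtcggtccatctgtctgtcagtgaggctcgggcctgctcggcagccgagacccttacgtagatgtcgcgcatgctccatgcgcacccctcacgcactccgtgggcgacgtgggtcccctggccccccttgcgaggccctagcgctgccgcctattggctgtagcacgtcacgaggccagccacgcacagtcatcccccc

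These regions are chr6:49345288-49345537 (plus strand), chr3:95363349-95363598 (plus strand) and chr17:50432946-50433195 (minus strand) in mm9. A second RefSeq start of *Stk31*, at which the deposited locus begins, placed the same E-box 120 bp before it, and a second start of *Hormad1* placed its E-boxes at 59 and 22 bp. Among related gene lists the E-box occurred in 6 of 15 promoters of other piRNA and nuage factors (40.0%) and in 4 of 25 promoters of other meiotic chromosome and recombination genes (16%). All 4 of the latter also held the E2F-type sequence. For other germline genes that DNA methylation silences in somatic cells the E-box count was 4 of 13 (30.8%). It was 0 of 7 for primordial germ cell genes and 0 of 9 for spermatid genes. Genes of DNA and H3K9 methylation and demethylation, not a germline list, had it in 3 of 13 (23.1%). Of the genes that a comparison of the Tam-labelled library with WT kept, those with an E-box had a median log2 fold of 0.0222 and those without one 0.0162.

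The cells carried the defining transcripts of ESCs. All 7 pluripotency markers (*Pou5f1*, *Sox2*, *Nanog*, *Esrrb*, *Klf4*, *Zfp42* and *Tfcp2l1*) were at 1 FPKM or more in each library, and their summed level was 1700 FPKM in WT, 1610 in the Tam-labelled library and 1470 in the DoxTam-labelled library. FPKM is the number of fragments normalised to transcript length and library size. *Pou5f1*, which encodes *Oct4* and is the gene whose enhancer was targeted, had 664 FPKM in WT, 529 in the Tam-labelled library and 458 in the DoxTam-labelled library. The library given the inducer of transgenic *Oct4* was thus the lowest of the 3, against its label. By qPCR the paper reported near-complete loss of *Oct4* expression in -/- cells with tamoxifen alone, and a level similar to wild type with doxycycline. The Tam-labelled library did not show that loss, with a log2 fold of *Pou5f1* over WT of -0.33, inside 1.5-fold. How complete the deletion was in the sequenced cells was not tested here. By the spacing of low values, 1 fragment per kb was worth 0.0696 FPKM in WT, 0.157 in the Tam-labelled library and 0.124 in the DoxTam-labelled library, so that the treated libraries had about 0.444 and 0.560 times the depth of WT. Olfactory receptor genes, which serve the sense of smell, were above 0 in 34.0%, 70.7% and 17.0% of 1117 genes, with means of 0.0718, 0.285 and 0.0616 FPKM. The trophectoderm genes *Cdx2* and *Gata3* stood at 2.82 and 1.77 FPKM in the Tam-labelled library, compared with 0.639 and 0.0980 in WT and 0.128 and 0.213 in the DoxTam-labelled library. Other genes of these lineages went another way. *Eomes*, at 2.91, 4.08 and 5.43 FPKM in WT, Tam and DoxTam, and *Krt8*, at 5.11, 5.98 and 7.25 FPKM, were highest in the DoxTam-labelled library. *Hand1*, *Gata6* and *Pdgfra*, all under 1 FPKM, were below WT in the Tam-labelled library. Over the whole list of 12 trophectoderm and primitive endoderm genes, 3, 5 and 3 genes reached 1 FPKM and the summed levels were 23.2, 31.8 and 27.1 FPKM. The part of any of these differences in the results below was not tested, and in bulk RNA fewer expressing cells and less RNA per cell cannot be told apart.

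Of the 10 germline genes, 9 had 1 FPKM or more in each of the 3 libraries. The same number stood above the 95th percentile of the olfactory receptor genes, which was 0.251 FPKM in WT, 0.794 in the Tam-labelled library and 0.298 in the DoxTam-labelled library. Only 3, 4 and 4 of the 10 stood above the highest olfactory receptor gene, at 10.4, 9.68 and 11.9 FPKM. The median levels of the 10 genes were 7.91, 8.40 and 10.2 FPKM and their summed levels 90.3, 87.9 and 110 FPKM. The median percentile of the 10 genes among all genes of a library was 70.2, 70.6 and 73.8. These percentiles are over all genes, of which 5333 were at 0 in WT. In WT cells already, 9 of the germline genes were thus detected, from 1.89 FPKM for *Tdrkh* to 26.9 for *Sycp3*, while *Asz1* was at 0. The summed level of the Tam-labelled library was close to that of WT.

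Genes of mature germ cells and of gonads were lower. None of 10 spermatid genes, among them *Prm1*, *Prm2*, *Tnp1* and *Tnp2*, which encode the proteins that pack sperm DNA, reached 1 FPKM in WT or in the DoxTam-labelled library, and 1 gene, *Ldhc*, did so in the Tam-labelled library at 1.97 FPKM. Of 10 oocyte genes 1 reached 1 FPKM in each library. Of 10 somatic gonad genes 3, 5 and 2 did so. By contrast 11, 11 and 10 of 12 primordial germ cell genes were at 1 FPKM or more, a list that holds several genes that ESCs also use.

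**Figure D2:**
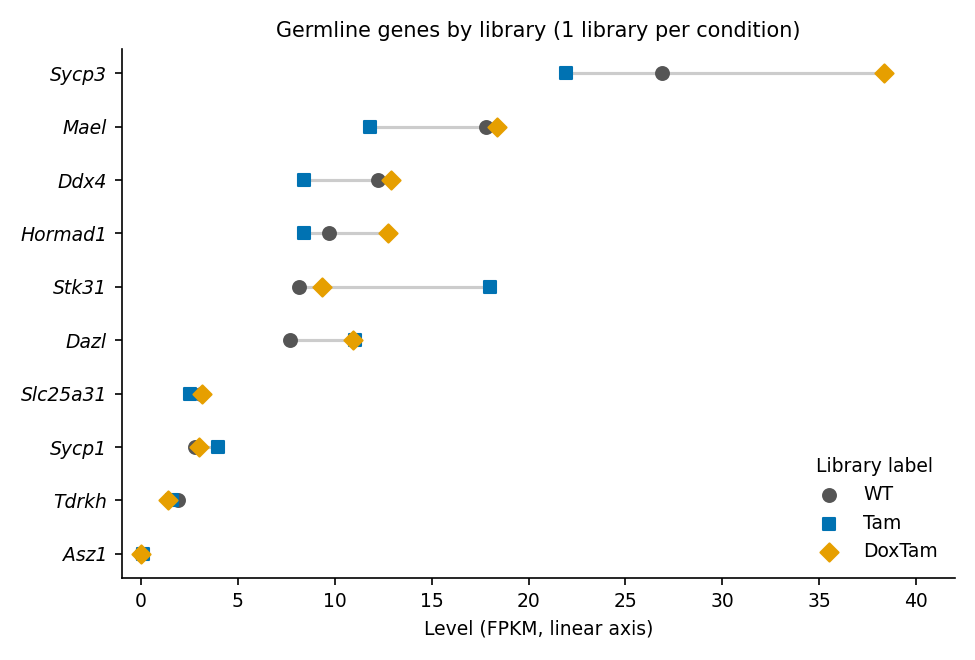
Levels of the 10 germline genes in FPKM on a linear axis, with 1 point for each of the 3 libraries and a grey line from the lowest to the highest of them. Sycp3 has the highest level in each library, Stk31 in the Tam-labelled library stands apart at 18.0 FPKM, and Asz1 lies at or next to 0.

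*Sycp3* had the highest level of the 10 in each library and *Asz1* the lowest. In WT the order was *Sycp3*, *Mael*, *Ddx4*, *Hormad1*, *Stk31*, *Dazl*, *Slc25a31*, *Sycp1*, *Tdrkh* and *Asz1*. The neighbours *Stk31* and *Dazl*, and *Slc25a31* and *Sycp1*, differed by less than 2 approximate counting SDs. *Stk31* stood after *Sycp3* in the Tam-labelled library, followed by *Mael* and *Dazl*, which did not differ beyond counting error. In the DoxTam-labelled library the order began with *Sycp3* and *Mael* as in WT, and neighbours among *Ddx4*, *Hormad1*, *Dazl* and *Stk31* did not differ beyond counting error. The approximate counting SD comes from the estimated number of fragments and covers counting error only.

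Differences are given as log2 folds of FPKM + 1, and a gene enters a comparison when either library reaches 1 FPKM and is then counted as higher or lower at 1.5-fold. *Stk31* was the germline gene that stood apart in the Tam-labelled library. It had 8.13 FPKM in WT, 18.0 in the Tam-labelled library and 9.36 in the DoxTam-labelled library, from about 378, 372 and 244 fragments. The level with tamoxifen alone was thus above both others, which lay close together. The ratio of the Tam-labelled library to WT was 2.21 and the log2 fold 1.06, with an approximate counting SD of 0.10. Of the 12705 genes kept in this comparison, 226 had a fold at least as high. The log2 fold was 0.18 between the DoxTam-labelled library and WT and -0.87 between the DoxTam- and Tam-labelled libraries. *Stk31* lies at chr6:49345603-49419501 on the plus strand (mm9). Its neighbours with a row were *Ccdc126*, at 2.13, 2.60 and 1.92 FPKM, and *Npy*, listed at 0 in each library.

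The other germline genes stayed inside 1.5-fold. Of the 9 genes kept for the Tam-labelled library, 1 was higher than in WT and 0 were lower, against 6.98% higher and 3.59% lower (10.6% in either direction) among all genes kept. The 9 folds ran from -0.55 to 1.06 with a median of -0.188, and 6 of them were below 0, while the median of all genes was 0.021. With the trend of fold against transcript GC content removed, the median was -0.394. The GC content of the germline transcripts was low, 34.6% to 46.6% with a median of 40.5%, against a median of 50.7% for the genes kept. Across all genes the folds of AT-rich genes were higher, with a median log2 fold of 0.24 in the 10% of genes with the lowest GC content and -0.19 in the 10% with the highest. The part of the GC trend in the folds of the germline genes was not tested, and genes among the 10 whose direction or call changed with its removal are named.

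*Dazl*, which binds and regulates germ cell mRNAs, had 7.70 FPKM in WT, 11.0 in the Tam-labelled library and 10.9 in the DoxTam-labelled library. Both treated libraries were thus above WT by a like amount. The log2 folds were 0.47 and 0.46, with approximate counting SDs of 0.12 and 0.11, and both were inside 1.5-fold. With the GC trend removed they were 0.13 and 0.04, and the transcript of *Dazl* holds 36.5% GC. *Dazl* lies at chr17:50418718-50432945 on the minus strand, on the chromosome of *Pou5f1*.

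Among the piRNA genes, *Ddx4* and *Mael* had their lowest values in the Tam-labelled library. *Ddx4*, the mouse homologue of the Vasa RNA helicase and a marker of germ cells, had 12.3 FPKM in WT, 8.40 in the Tam-labelled library and 12.9 in the DoxTam-labelled library. *Mael*, which acts in transposon silencing in male germ cells, had 17.8, 11.8 and 18.4 FPKM in the same order. For both genes WT and the DoxTam-labelled library lay side by side. The log2 folds of the Tam-labelled library over WT were -0.50 for *Ddx4* and -0.55 for *Mael*, with approximate counting SDs of 0.12 and 0.14. Both were just inside 1.5-fold, and both were outside it at -0.70 and -0.64 once the GC trend was removed. Between the DoxTam- and Tam-labelled libraries the log2 folds were 0.56 and 0.59, the latter past 1.5-fold. That of *Mael* was inside it with the GC trend removed, at 0.55, and with a pseudocount of 5 FPKM, at 0.47. *Ddx4* lies at chr13:113388541-113442518 and *Mael* at chr1:168131516-168168875, both on the minus strand.

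*Tdrkh* and *Asz1* complete the piRNA genes. *Tdrkh*, a tudor domain protein of mitochondria needed for piRNA trimming, had 1.89 FPKM in WT, 1.6 in the Tam-labelled library and 1.37 in the DoxTam-labelled library. The log2 folds over WT of -0.15 and -0.28 rest on about 98, 37 and 40 fragments and were within 2 counting SDs. *Asz1*, a protein of the germ cell granules near mitochondria, was listed at 0 in WT and in the DoxTam-labelled library and at 0.0851 FPKM in the Tam-labelled library, about 1 fragment. It passed the filter in no comparison and no fold is given. *Tdrkh* lies at chr3:94217240-94235421 on the plus strand. *Asz1* lies at chr6:18000964-18059061 on the minus strand, between *Wnt2* and *Cftr*, which were at most 0.113 FPKM in any library.

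The genes of meiotic chromosomes split. *Sycp3*, a component of the lateral element of the synaptonemal complex, had 26.9 FPKM in WT, 22 in the Tam-labelled library and 38.3 in the DoxTam-labelled library. It was highest with tamoxifen and doxycycline and lowest with tamoxifen alone. The log2 folds over WT were -0.28 and 0.50, and the log2 fold between the DoxTam- and Tam-labelled libraries was 0.78, past 1.5-fold. With the GC trend removed, the log2 fold of the Tam-labelled library over WT was -0.59, past 1.5-fold as well. The annotated *Sycp3* gene, chr10:87922314-87935981 on the plus strand, lies within the span of *Chpt1*, a phospholipid synthesis gene on the other strand. *Chpt1* spans chr10:87915490-87966818. The deposited locus of *Sycp3*, chr10:87922332-87966715, runs past the annotated end of *Sycp3* and stays within that span. The sources used here do not name the strand setting of the authors' counting, so the value of *Sycp3* is uncertain. *Chpt1* had 4.49, 7.10 and 5.52 FPKM, with log2 folds over WT of 0.56 and 0.25.

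*Hormad1*, which marks unsynapsed meiotic chromosome axes, had 9.71 FPKM in WT, 8.40 in the Tam-labelled library and 12.7 in the DoxTam-labelled library. The order was that of *Sycp3*. Its log2 folds over WT were -0.19 and 0.36, and 0.55 between the DoxTam- and Tam-labelled libraries, all inside 1.5-fold. The next gene, *Golph3l*, lies 1288 bp beyond *Hormad1* and had 10.4, 14.4 and 15.3 FPKM. *Sycp1*, the transverse filament protein that joins paired chromosomes, had 2.80, 3.99 and 3.01 FPKM and was highest in the Tam-labelled library. Its log2 fold of 0.39 there became 0.01 after removal of the GC trend, and its transcript had the lowest GC content of the 10 at 34.6%. *Hormad1* lies at chr3:95363599-95391782 on the plus strand and *Sycp1* at chr3:102622422-102740023 on the minus strand.

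*Slc25a31*, which exchanges ADP and ATP across the mitochondrial membrane of male germ cells, had 3.10 FPKM in WT, 2.53 in the Tam-labelled library and 3.16 in the DoxTam-labelled library. Its 3 log2 folds, -0.22 and 0.021 over WT and 0.24 between the treated libraries, were within 2 counting SDs. It lies at chr3:40512793-40530016 on the plus strand. The carriers of the same family that most other cells use were far higher, with 32.7, 24.2 and 24.0 FPKM for *Slc25a4* and 149, 122 and 138 FPKM for *Slc25a5*. Among other close relatives, *Boll*, of the *Dazl* family, had 1.55, 1.05 and 2.17 FPKM, and *Hormad2* had 1.98, 2.41 and 1.05 FPKM.

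None of the 9 genes kept for the DoxTam-labelled library was past 1.5-fold of WT, with 0 higher and 0 lower, against 4.12% higher, 5.78% lower and 9.9% in either direction among all genes kept. Of the 9 genes 8 had a log2 fold above 0 and *Tdrkh* one below it, and the median was 0.0788 against -0.00275 for all genes. Once the GC trend was removed, *Ddx4*, *Mael*, *Sycp1*, *Hormad1*, *Stk31* and *Slc25a31* turned below 0 and the median was -0.162. The GC trend was steepest in this comparison, with median log2 folds of 0.34 and -0.34 in the 10% of genes with the lowest and the highest GC content. The direction of 6 of these genes therefore depended on that step. Rescaled to the same total, which moved the median of all genes up by 0.321, *Dazl*, *Sycp3* and *Hormad1* were past 1.5-fold at 0.79, 0.85 and 0.70. A single small RNA gene, *Mir6236*, held 43.1% of that total in WT, 35.3% in the Tam-labelled and 27.4% in the DoxTam-labelled library. With small RNA genes left out of the total, the median of all genes moved by -0.00187 and 0 of the 9 genes were higher.

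Between the treated libraries, 2 of 9 genes were higher in the DoxTam-labelled library, *Mael* and *Sycp3*, and 1 was lower, *Stk31*. Among all genes kept, 2.09% were higher, 5.73% lower and 7.82% either of these. *Ddx4* and *Hormad1*, at 0.56 and 0.55, were just under the limit of 0.58 that corresponds to 1.5-fold, and *Mael* at 0.59 was just over it. The median of the 9 was 0.238, against -0.0196 for all genes, and 0.133 after removal of the GC trend. Values were taken across the 2 tables, which give the same WT library. The comparisons with WT share it, and each comparison with a treated library shares that library with another.

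**Figure D3:**
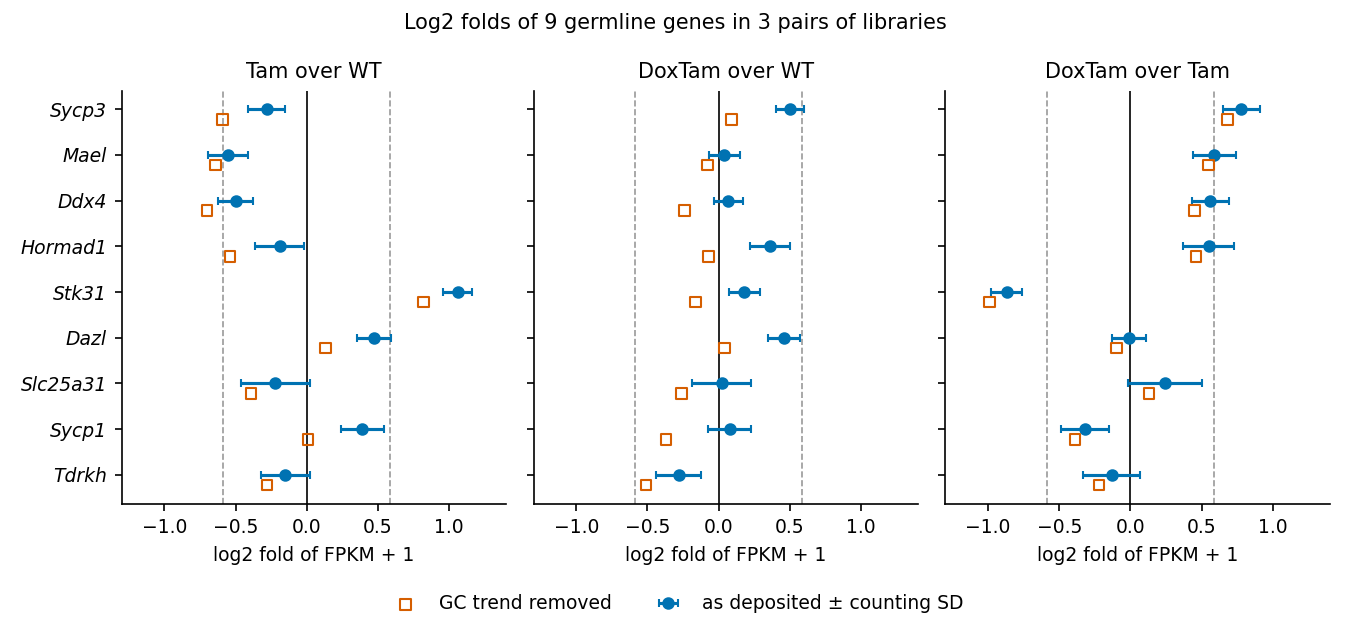
Log2 folds of FPKM + 1 for the 9 germline genes that passed the filter, in 3 pairs of libraries, with filled circles for deposited values, bars for 1 approximate counting SD, open squares for values with the GC trend removed, and dashed lines at 1.5-fold. Stk31 lies past the line at 1.06 in the Tam-labelled library and at -0.87 between the treated libraries, where Sycp3 lies on the other side at 0.78.

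Related genes were compared with the 10 as a background. Of 20 further piRNA and nuage factors, 15 were kept in the Tam-labelled library against WT, with a median log2 fold of -0.0817. Of the 15, 1 was higher and 3 were lower, against 6.98% higher and 3.59% lower among all genes kept. *Tex15*, which acts in piRNA-directed transposon silencing, was the higher one, with 2.18 FPKM in WT, 5.84 in the Tam-labelled library and 2.98 in the DoxTam-labelled library. Its values had the order of those of *Stk31*. The lower ones were *Piwil4*, *Mov10l1* and *Piwil1*, the last of which was inside 1.5-fold at -0.57 with the GC trend removed. *Piwil4*, at 1.66, 0.549 and 0.756 FPKM, and *Piwil1*, at 1.42, 0.589 and 0.893 FPKM, passed the filter only through WT, where they are highest. The count of 3 lower genes therefore cannot be read as an excess. *Mov10l1*, the helicase of primary piRNA processing, had 8.23, 4.98 and 5.64 FPKM. In the DoxTam-labelled library 0 of 15 were higher than in WT and 1, *Piwil4*, was lower, against 4.12% and 5.78% of all genes kept. The log2 fold of *Piwil4* was -0.60, and here too the gene passed the filter only through WT.

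Of 27 further meiotic chromosome and recombination genes with a row, 17 were kept in the Tam-labelled library, 0 of them higher and 3 lower, with a median log2 fold of -0.27. Of all genes kept, 6.98% were higher and 3.59% lower. With the GC trend removed 6 of the 17 were lower, and the share of all genes after that step was not computed. *Stra8*, the retinoic acid-induced gene of meiotic entry, had 59.5 FPKM in WT, 27.9 in the Tam-labelled library and 31.2 in the DoxTam-labelled library. Both treated libraries were below WT, at log2 folds of -1.07 and -0.91. The meiotic cohesin subunits *Smc1b* and *Stag3* were the others lower with tamoxifen alone, *Stag3* at 48.2, 31.0 and 48.1 FPKM. Of 18 genes kept for the DoxTam-labelled library, 0 were higher and 3 lower, *Syce3*, *Stra8* and *Rec8*, of which the cohesin subunit *Rec8* had 19.3, 15.8 and 10.3 FPKM. Of all genes kept, 4.12% were higher and 5.78% lower. With the GC trend removed 5 of the 18 were lower, again without a share of all genes for that step.

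Of 12 primordial germ cell genes 11 were kept in the Tam-labelled library, with *Ifitm3* higher and *Dmrt1* and *Kit* lower. Of all genes kept there, 6.98% were higher and 3.59% lower. *Ifitm3*, an interferon-inducible membrane protein, had 19.4, 45.9 and 26.5 FPKM, and *Dmrt1*, a transcription factor of the testis, had 22.3, 11.9 and 23.4 FPKM. The Tam-labelled library was the odd one in both, in opposite directions. *Kit*, at 10.5, 6.30 and 6.11 FPKM, was below WT in both treated libraries. In the DoxTam-labelled library 0 of 11 primordial germ cell genes were higher and 2 were lower, *Kit* and *Tfap2c*. Of all genes kept in that comparison, 4.12% were higher and 5.78% lower. Of 14 other germline genes that DNA methylation silences in somatic cells, 9 were kept in the Tam-labelled library. Of these, 1 was higher and 1 lower, against the same 6.98% and 3.59%, and 2 were lower with the GC trend removed. The higher one, *Rpl10l*, had 14.3, 30.0 and 14.5 FPKM and is uncertain as a retrocopy of *Rpl10*, and the lower one, *Zcwpw1*, a histone reader of meiosis, had 38.4, 21.4 and 28.6 FPKM. None of these 9 was past 1.5-fold in the DoxTam-labelled library, with 0 higher and 0 lower, against 9.9% of all genes kept in either direction.

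The regulators of germline genes are read against the 10.6% of all genes kept that were past 1.5-fold in the Tam-labelled library and the 9.9% in the DoxTam-labelled library. Of 15 PRC1.6 subunits 0 in the Tam-labelled library were higher and 0 lower, with a median log2 fold of -0.0657. With doxycycline as well, 1 was higher than in WT, the ubiquitin ligase *Rnf2* at 32.0, 46.9 and 55.3 FPKM, and 1 was lower, its relative *Ring1* at 3.21, 1.96 and 1.61 FPKM. With the GC trend removed both were inside 1.5-fold, at 0.40 for *Rnf2* and -0.34 for *Ring1*, and 1 other subunit, *Cbx3*, was lower at -0.65. Of 13 genes of DNA and H3K9 methylation and demethylation 0 were past 1.5-fold in either direction in any of the 3 comparisons. The maintenance methyltransferase *Dnmt1* had 132, 112 and 109 FPKM, *Dnmt3l*, the cofactor of the de novo methyltransferases, 192, 214 and 200 FPKM, and the demethylation enzyme *Tet1* 153, 131 and 165 FPKM.

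**Figure D4:**
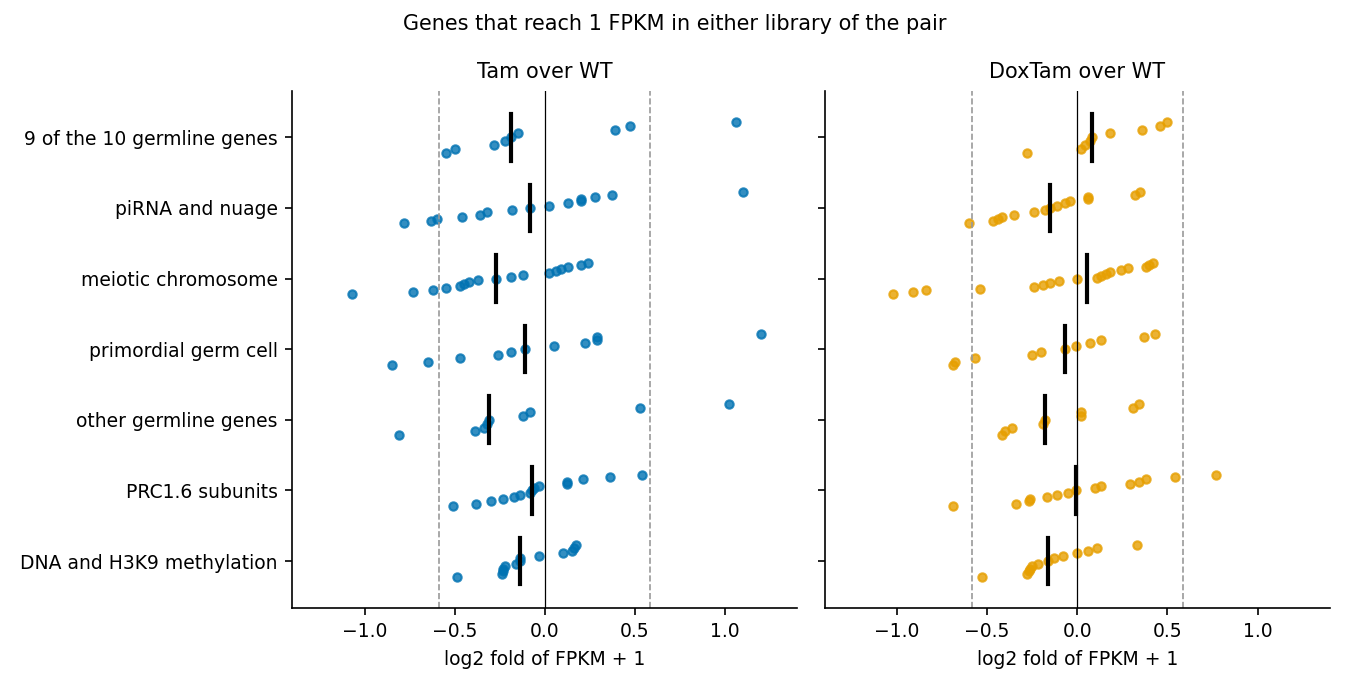
Log2 folds of FPKM + 1 over WT for genes that reach 1 FPKM in either library of a pair, by gene list, with 1 point per gene, black bars at the list medians and dashed lines at 1.5-fold. The germline genes lie on both sides of 0 in the Tam-labelled library, and the 13 genes of DNA and H3K9 methylation lie inside the lines in both panels.

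The 3 genes whose pair of log2 folds over WT lay closest to the median pair of the germline genes, among 12047 genes and over 3 libraries, were *Armc7*, *Cbx7* and *Art5*. *Armc7* had 2.17, 1.78 and 2.34 FPKM, and *Cbx7*, a Polycomb protein, had 66.1, 58.2 and 69.6 FPKM. Closeness over 3 libraries is a description of these values.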

How the data were processed

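RNA-seq of 3 E14 ESC libraries (WT, Tam, DoxTam) was analysed, with conditions taken from the submitters' labels. The authors deposited 2 tables with FPKM per gene, made with TopHat and Bowtie alignments to mm9 and Cufflinks 2.0.0 by the submitters' processing notes. Versions of the aligners and the strand setting are not given in the sources used here. The deposited status column, a category of other kind, was used for 1 alternative. The deposited log2 ratios, test statistics, p-values and q-values of the authors were not used. FPKM is scaled to transcript length and library size and is not a count, so no count model was run.

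Tables were joined by symbol, leaving out 27 names that a spreadsheet had turned into dates in 1 table (23926 genes joined). From FPKM, log2 folds were computed with a pseudocount of 1 FPKM, which understates folds of low genes, for genes that reached 1 FPKM in either library of a pair, and counted at 1.5-fold. No test was possible with 1 library per condition. Depth was estimated from the smallest steps of FPKM times transcript length, and a counting SD from it covers counting error only. Transcript GC content and neighbours came from GENCODE vM1 for mm9, and the GC trend was removed by lowess (statsmodels 0.14.6, span 0.2). Promoter sequences came from RefSeq (GRCm38.p6) and were placed in mm9 by exact match. Python 3.11.15, pandas 2.3.3 and numpy 2.4.6 were used, and the scripts were tested on simulated data.

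Named genes were the 10 germline genes, up to 4 genes per list with the highest and lowest folds past 1.5-fold, regulators, relatives, neighbouring genes and the 3 genes most alike in fold. Cdx2, Gata3, Eomes and Ldhc fall under the lists, and Krt8, Hand1, Gata6 and Pdgfra are named for contrast with Cdx2 and Gata3. The genes and lists were chosen with earlier results of these data known. The symbols Rec114 and Meioc matched no row. Alternatives changed the pseudocount, filter, fold limit, scaling, background, GC trend and status.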

Additional observations from a re-analysis of the deposited data

How the results depend on the processing

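Over 277 alternative values for single germline genes, 256 kept their side of the limit, 16 moved past it, 5 were no longer past it, and 10 changed sign, 6 of them with the GC trend removed. Of the 5, 3 were unchanged folds set against the 2-fold limit, and 2 were Mael in DoxTam over Tam, at 0.47 with a pseudocount of 5 FPKM and 0.55 with the GC trend removed. No gene past 1.5-fold changed direction. Stk31 in the Tam-labelled library stayed higher, from 0.81 to 1.20 (log2). Rescaling to the same total, which shifts the median of all genes by 0.131, 0.321 and 0.193 (Tam over WT, DoxTam over WT, DoxTam over Tam), gave 2 genes higher in Tam, 3 higher in DoxTam with a median fold of 0.41, and 4 higher in DoxTam over Tam with a median of 0.40. With a pseudocount of 0.1 FPKM, or with small RNA genes left out of the total, 1 gene (Mael) was lower in Tam and 4 were higher in DoxTam over Tam. A pseudocount of 5 FPKM left 1 gene higher in DoxTam over Tam. With the GC trend removed, 3 genes (Ddx4, Mael, Sycp3) were lower in Tam with a median of -0.39, the DoxTam median was -0.16, and 1 gene was higher in DoxTam over Tam. At 2-fold 0 were higher and 0 lower in DoxTam over Tam. A filter at 5 FPKM kept 6 genes, with medians of 0.27 in DoxTam and 0.56 in DoxTam over Tam. Shares of all genes past the limit were computed only for values as deposited. The counts of germline genes under other settings therefore have no matching share and cannot be read as an excess. The cause of these shifts was not tested. No paired analysis was possible because each condition has 1 library. Depth limits the low genes Tdrkh and Slc25a31, whose treated values rest on 26 to 41 fragments.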

Other observations

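Of 39 genes of the Y chromosome with a row, 38 were listed at 0 in WT and 39 in each of the libraries labelled Tam and DoxTam. *Ddx3y*, the Y-linked relative of the RNA helicase *Ddx4*, was listed at 0 in all 3 libraries, while its X-linked partner *Ddx3x* had 107, 124 and 153 FPKM. *Gpa33*, the gene next to *Mael* on its lower side, had 23.6 FPKM in WT, 33.7 in the Tam-labelled library and 25.3 in the DoxTam-labelled library, so that *Mael* was lowest and *Gpa33* highest in the same library.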
